A study of Mus musculus with 8 samples.

Results

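The mitochondrial ribosome protein genes are the protein-coding genes whose symbols start with Mrpl (large subunit) or Mrps (small subunit). A search of 21896 protein-coding mouse genes (GRCm38, also called mm10) by symbol found 78 members, 49 Mrpl and 29 Mrps, spread over 17 chromosomes. The mitochondrial ribosome translates the few messenger RNAs that mitochondrial DNA encodes, all of them for membrane subunits of the respiratory chain and of ATP synthase. Its proteins are made in the cytosol from nuclear genes and are imported, so the whole set has to be transcribed in the nucleus. The small subunit reads the messenger, and the large subunit joins the amino acids and passes the new chain to the inner membrane. The split used here follows the symbols; in solved mammalian structures the products of Mrps18a and Mrps30 sit in the large subunit, and the product of Mrps36 has been reassigned to the 2-oxoglutarate dehydrogenase complex.

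Open chromatin was mapped by ATAC-seq, which uses a transposase to cut and tag accessible DNA, in type 1 conventional dendritic cells (cDC1s), which cross-present tumour antigen to cytotoxic T cells. They came by sorting from tumours of B16-OVA, melanoma cells expressing ovalbumin, in wild-type mice. 4 libraries were from day 21 after tumour inoculation and 4 from day 7. The question put to them here is how open these genes were in cDC1s of late tumours, compared with early ones. The labels give neither the age of the mice nor whether each library is an animal or a pool of its own. A p-value here therefore reflects the scatter among the sequenced libraries, which may be technical.

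Libraries held 14021151 to 27737040 counts in regions at day 21 and 9440223 to 16063736 at day 7. Regions at gene ends took 36.1% to 36.6% of the counts at day 21, against 37.9% to 39.3% at day 7. Gene-end windows reached 1 kb to each side of both annotated ends of a gene, and the value of a gene was the sum over all deposited regions that overlapped them, in CPM, the counts of the gene scaled to a common library size. At the ends of 9 tested cDC1 markers the summed value was 334 to 366 CPM at day 21 and 339 to 367 CPM at day 7, with 1 called lower and 1 higher; in distal regions 5 of 8 were higher, at 1048 to 1108 CPM at day 21, against 927 to 997 CPM at day 7. Distal regions of 9 tested T and NK cell markers summed to 256 to 278 CPM at day 21, against 332 to 342 CPM at day 7, with 6 of the 9 genes called lower, and at gene ends 3 of 6 were lower and 1 higher (68.8 to 83.2 CPM at day 21, 77.7 to 87.0 CPM at day 7). Gene ends of 8 macrophage and monocyte markers summed to 51.7 to 59.2 CPM at day 21, against 43.5 to 48.6 CPM at day 7, with 3 of the 8 called higher; their distal sums overlapped, at 197 to 201 CPM at day 21 and 178 to 206 CPM at day 7, with 2 higher and 1 lower of 8. At the ends of 3 tested B cell markers the ranges overlapped, at 19.6 to 22.1 CPM at day 21 and 19.0 to 25.9 CPM at day 7, with none called by edgeR nor at an unadjusted p under 0.05. In distal regions 1 of 2 B cell markers was higher, at 48.4 to 59.4 CPM at day 21 and 44.4 to 53.3 CPM at day 7. Ends of 4 melanoma markers summed to 115 to 131 CPM at day 21 and 125 to 138 CPM at day 7, with 2 lower, and distal regions of 4 summed to 49.0 to 63.9 CPM at day 21 and 61.1 to 66.1 CPM at day 7, with 1 lower. Over all genes tested 24.6% were called lower and 6.71% higher at gene ends, and 11.4% lower and 18.3% higher in distal regions. The part of other cell types in the results below was not tested, and in sorted bulk cells a change in the mixture and a change in each cell cannot be told apart.

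Many gene ends of the mitochondrial ribosome were less open at day 21, and few were more open. An edgeR quasi-likelihood test with Benjamini-Hochberg adjustment over all 13569 genes tested called 31 of the 75 members with a region lower (adjusted p under 0.05) and 2 higher, and 42 were not called. Among all genes tested 24.6% were called lower and 6.71% higher. The median log2 fold change, day 21 over day 7, was −0.19 for the members, against −0.09 for all genes tested, and 63 members lay below 0. The falls were small: those of the 31 called members ran from 0.21 to 0.50 on the log2 scale, and the median of them was a fall by 17.9%. In 22 members every day 21 library lay below every day 7 library, against 20.6% of all genes tested, and in 1 member every day 21 library lay above, against 5.95%. When each library was instead scaled with a trended offset, which follows signal strength and takes the median of all genes close to 0, 15 members were lower and 3 higher, with backgrounds of 12.3% and 11.9%. All 15 were among the 31, and the medians became −0.11 for the members and −0.01 for all genes.

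**Figure D1:**
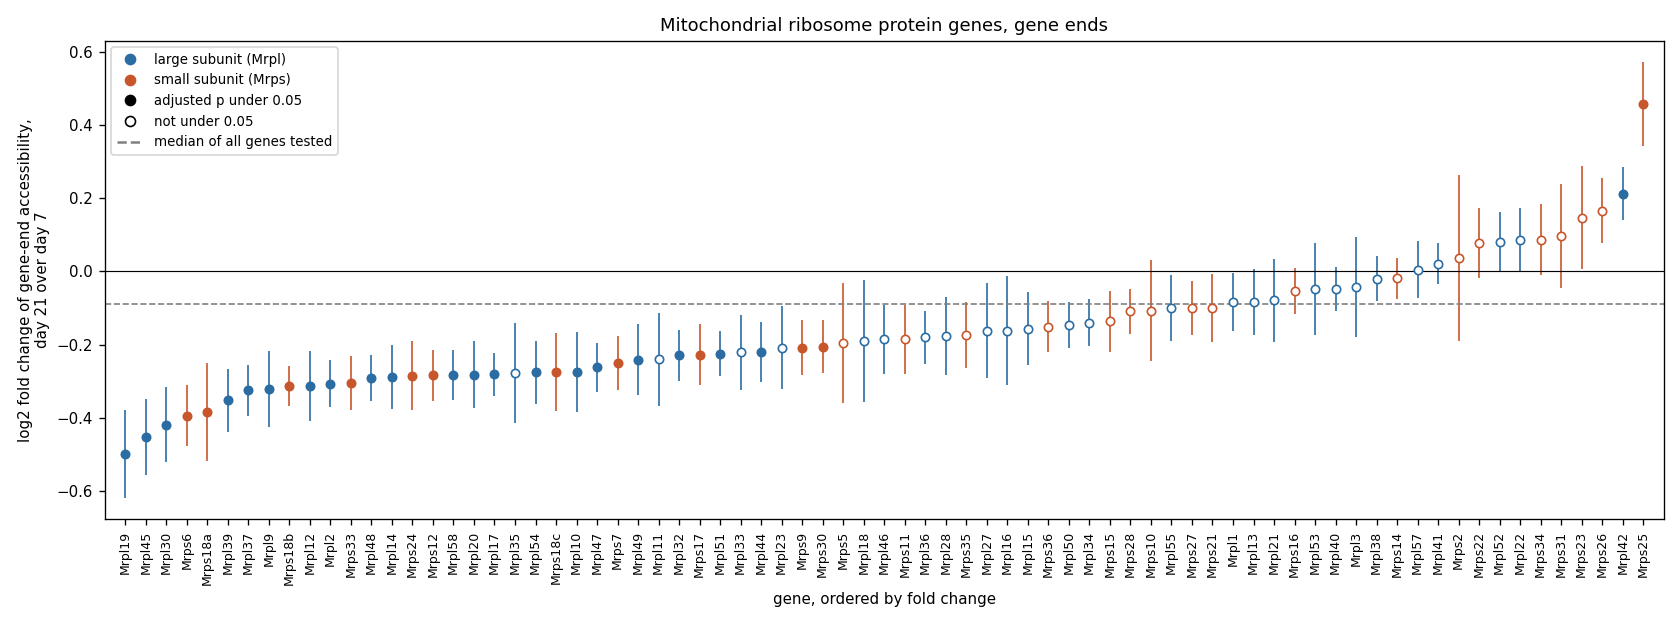
Log2 fold change of gene-end accessibility, day 21 over day 7, for the 75 members with a region at an end, ordered by value, with bars of 1 SE of the edgeR fit (n = 4 libraries a day). Blue marks large and orange small subunit genes, filled points have an adjusted p under 0.05, and the dashed line at −0.09 is the median of all genes tested; the points run from −0.50 at Mrpl19 to 0.46 at Mrps25.

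The lower member with the smallest p was Mrps18b, which encodes 1 of 3 mammalian relatives of bacterial S18. Its ends had 96.2, 102, 108 and 99.3 CPM in the day 21 libraries, against 122, 139, 123 and 121 CPM in the day 7 libraries. All day 21 libraries lay below all day 7 libraries, and the second day 7 library stood above the others. The log2 fold change was −0.31 ± 0.06 (SE, edgeR adjusted p = 1.06e-05). Mrpl17, a core large subunit protein with a bacterial counterpart, had 65.6, 66.9, 67.8 and 60.7 CPM at day 21, against 81.2, 82.4, 77.7 and 75.7 CPM at day 7. The days did not overlap and the libraries of each day were close together, at −0.28 ± 0.06 (edgeR adjusted p = 0.000176). Mrps6, the counterpart of bacterial S6, had 28.3, 23.5, 23.4 and 26.4 CPM at day 21, against 31.6, 34.0, 37.4 and 31.1 CPM at day 7. Again no day 21 library reached the lowest day 7 library (−0.40 ± 0.08, edgeR adjusted p = 0.000183). These 3 genes kept their call under every alternative that gave a value. Counting only regions in no other gene's window gave none at Mrps18b and Mrps6. Every end region of these genes also lies in a neighbour's window, that of Slc5a3 at Mrps6.

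The promoters of these 3 genes are shown because they carried the most clearly called falls. Each is the RefSeq GRCm38.p6 sequence from 250 bases before to 50 after the start, and lies inside the deposited region at the start. Mrps18b is at chr17:35916391-35916690, minus strand, Mrpl17 at chr7:105811038-105811337, minus strand, and Mrps6 at chr16:92058086-92058385, plus strand. Capitals mark matches, on either strand, to motifs of transcription factors common at housekeeping promoters: NRF1 (TGCGCATGC), ETS (CCGGAAG), SP1 (GGGCGG), YY1 (AAGATGGCG), NFY (CCAAT) and CRE (TGACGTCA).
Mrps18b: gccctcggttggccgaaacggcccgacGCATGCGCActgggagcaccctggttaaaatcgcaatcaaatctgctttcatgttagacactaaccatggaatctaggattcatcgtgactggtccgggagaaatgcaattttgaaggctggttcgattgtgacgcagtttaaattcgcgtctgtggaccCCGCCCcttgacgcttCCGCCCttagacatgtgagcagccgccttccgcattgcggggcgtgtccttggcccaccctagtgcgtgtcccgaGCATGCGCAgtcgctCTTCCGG
Mrpl17: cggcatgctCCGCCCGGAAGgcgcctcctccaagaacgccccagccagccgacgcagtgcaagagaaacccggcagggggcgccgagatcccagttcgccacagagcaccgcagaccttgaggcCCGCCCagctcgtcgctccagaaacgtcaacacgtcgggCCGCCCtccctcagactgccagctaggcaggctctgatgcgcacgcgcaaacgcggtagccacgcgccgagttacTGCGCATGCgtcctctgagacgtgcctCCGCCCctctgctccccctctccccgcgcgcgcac
Mrps6: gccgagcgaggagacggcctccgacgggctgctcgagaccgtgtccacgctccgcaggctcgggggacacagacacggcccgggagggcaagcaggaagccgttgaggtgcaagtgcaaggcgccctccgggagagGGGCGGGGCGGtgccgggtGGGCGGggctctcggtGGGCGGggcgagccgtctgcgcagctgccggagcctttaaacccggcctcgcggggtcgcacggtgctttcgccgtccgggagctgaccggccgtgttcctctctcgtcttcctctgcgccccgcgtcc
The Mrps18b window held 2 NRF1, 2 SP1 and 1 ETS match. In the Mrpl17 window 4 SP1, 1 ETS and 1 NRF1 match were found, of which an SP1 and an ETS match overlapped. The Mrps6 window held 4 SP1 matches, with a pair overlapping, and no other of the 6 motifs. A match describes the letters of the window and does not show that a factor binds there.

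Among large subunit genes 20 of 46 tested were lower and 1 higher, with a median of −0.21. Mrpl2, whose bacterial counterpart lies next to the peptidyl transferase centre, had 47.3, 48.1, 50.7 and 49.6 CPM at day 21, against 58.0, 68.0, 55.5 and 61.2 CPM at day 7. The day 21 libraries agreed closely and all lay below day 7 (−0.31 ± 0.07, edgeR adjusted p = 0.000212). Mrpl37, a protein without a bacterial counterpart, had 39.2, 37.8, 43.7 and 41.9 CPM at day 21, against 46.8, 53.6, 50.0 and 53.7 CPM at day 7. The days were again apart (−0.32 ± 0.07, edgeR adjusted p = 0.000215). An end region of Mrpl37 also lies in the window of Cyb5rl. Mrpl48, also specific to mitochondria, had 51.3, 55.8, 57.8 and 56.0 CPM at day 21, against 63.5, 73.7, 69.0 and 65.2 CPM at day 7, without overlap (−0.29 ± 0.06, edgeR adjusted p = 0.000236). Its only end region also lies in the window of Rab6a.

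The deepest fitted falls were at 2 large subunit genes. Mrpl19, the counterpart of bacterial L19, had 8.79, 9.26, 10.1 and 11.03 CPM at day 21, against 12.6, 15.0, 13.7 and 14.5 CPM at day 7. The days were separate, and the fall was by 29.2% (log2 fold change −0.50 ± 0.12, edgeR adjusted p = 0.00101). Mrpl45, which sits at the exit of the peptide tunnel and ties the ribosome to the inner membrane, had 14.3, 13.1, 14.4 and 14.1 CPM at day 21, against 18.9, 22.4, 18.0 and 17.9 CPM at day 7. All day 21 libraries were lower, by 27.0% on the fitted scale (−0.45 ± 0.10, edgeR adjusted p = 0.000546).

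Of the stalk, which recruits elongation factors, 2 of 3 genes were called lower, beside 24.6% of all genes tested. Mrpl12, a stalk protein that in human cells also binds the mitochondrial RNA polymerase, had 16.3, 18.7, 21.3 and 17.4 CPM at day 21, against 22.2, 23.3, 23.0 and 23.1 CPM at day 7. No libraries overlapped (−0.31 ± 0.10, edgeR adjusted p = 0.00865), and with trended offsets the adjusted p was 0.0608. Mrpl10, the base of the stalk, had 14.7, 12.9, 12.4 and 12.2 CPM at day 21, against 14.5, 15.9, 15.4 and 16.8 CPM at day 7. Here the days overlapped, and the call (−0.28 ± 0.11, edgeR adjusted p = 0.0470) was lost without any 1 of 6 libraries: day 7 replicates 2, 3 and 4 (adjusted p = 0.0736, 0.0734 and 0.153) and day 21 replicates 2, 3 and 4 (0.0798, 0.0908 and 0.145). It was also lost with trended offsets (edgeR adjusted p = 0.139), with counts thinned to the shallowest library (edgeR, 0.245) and in the DESeq2 Wald test (0.0568). The only end region of Mrpl10 also lies in the window of Lrrc46, and the fall of Mrpl12 lay in a region shared with Hgs. Mrpl11, the other stalk-base protein, was not called at 11.1 ± 1.29 CPM at day 21 and 13.3 ± 2.98 CPM at day 7 (SD, n = 4 each).

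Other large subunit genes with a described role behaved unevenly. Mrpl44, which has a ribonuclease III-like fold, had 24.6, 25.5, 26.1 and 24.6 CPM at day 21, against 27.7, 32.5, 28.3 and 29.1 CPM at day 7. Every day 21 library lay below day 7 (−0.22 ± 0.08, edgeR adjusted p = 0.0344). That call did not hold without day 7 replicate 2 or 4 (adjusted p = 0.127 and 0.0610), nor without day 21 replicate 1, 2 or 4 (0.0637, 0.0539 and 0.0960). With trended offsets the value was −0.12 and the call was lost as well (edgeR adjusted p = 0.284). The only end region of Mrpl44 also lies in the window of Wdfy1. Mrpl58, a peptidyl-tRNA hydrolase built into the large subunit, had 43.6, 38.2, 41.4 and 40.2 CPM at day 21, against 47.0, 51.1, 47.1 and 53.2 CPM at day 7. It was lower without overlap (−0.28 ± 0.07, edgeR adjusted p = 0.00109). Mrpl23, a tunnel-exit protein, was not called at 13.9 ± 0.91 CPM at day 21 and 15.97 ± 3.22 CPM at day 7, and was lower without day 7 replicate 2 (−0.32, edgeR adjusted p = 0.0253). Mrpl3, the counterpart of bacterial L3, had 9.18 ± 1.24 CPM at day 21 and 9.48 ± 0.57 CPM at day 7 and was not called.

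Among small subunit genes 11 of 29 were lower and 1 higher, with a median of −0.15. By symbol these include Mrps18a and Mrps30, both lower, whose products sit in the large subunit, and the reassigned Mrps36, not called. Mrps12, the counterpart of bacterial S12 at the decoding centre, had 42.9, 41.5, 50.5 and 42.9 CPM at day 21, against 51.2, 56.4, 57.9 and 51.2 CPM at day 7. The third day 21 library stood above the rest of its day but below all of day 7 (−0.28 ± 0.07, edgeR adjusted p = 0.00103). Mrps33, a small protein specific to mitochondria, had 34.8, 32.8, 38.5 and 31.4 CPM at day 21, against 40.6, 40.7, 44.9 and 43.1 CPM at day 7. No overlap was seen (−0.31 ± 0.07, edgeR adjusted p = 0.00105). Mrps7, a core head protein, had 36.6, 37.2, 37.4 and 35.1 CPM at day 21, against 39.6, 49.4, 39.0 and 46.2 CPM at day 7. The spread was wider at day 7, and the days were apart (−0.25 ± 0.07, edgeR adjusted p = 0.00681). Without day 7 replicate 2 the adjusted p was 0.0513, and with trended offsets it was 0.124. An end region of Mrps7 also lies in the window of Gga3.

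The remaining small subunit genes named for their roles were not called. Mrps2, counterpart of bacterial S2, had the least open ends per length of all members, with 3.65 ± 0.52 CPM at day 21 and 3.61 ± 0.65 CPM at day 7. Mrps5, at the messenger channel, had 6.36 ± 1.17 CPM at day 21 and 7.41 ± 0.80 CPM at day 7. Mrps22 and Mrps34, both specific to mitochondria and both mutated in human mitochondrial disease, had fold changes of 0.08 ± 0.10 and 0.09 ± 0.10. Mrps36, the reassigned gene, had 41.3 ± 1.93 CPM at day 21 and 46.1 ± 4.18 CPM at day 7, with an edgeR adjusted p of 0.0945, and was lower when day 7 replicate 1 was left out (adjusted p = 0.0395).

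**Figure D2:**
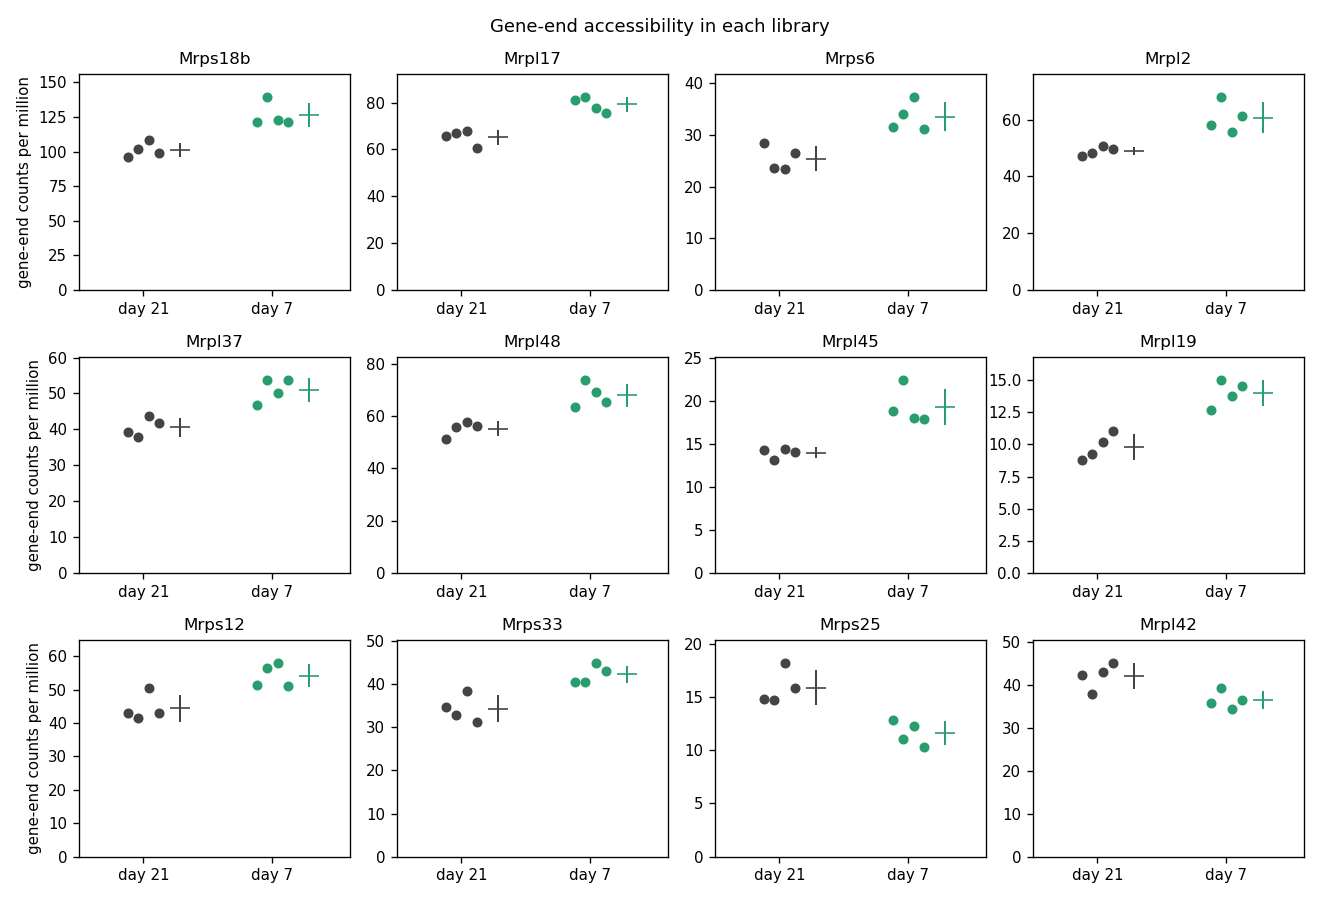
Gene-end accessibility in CPM on a linear axis from 0, one point per library, for the 10 called lower members with the smallest p and the 2 called higher; the cross beside the points is the mean with 1 SD (n = 4). In the 10 lower genes every day 21 point lies below every day 7 point, and at Mrpl42 the lowest day 21 library lies within the day 7 range.

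By subunit, trended offsets left 10 of 46 large subunit genes lower with 1 higher, and 5 of 29 small subunit genes lower with 2 higher. The background on that scale was 12.3% lower and 11.9% higher. The medians of large and small subunit genes were −0.14 and −0.08. Whether the subunits differ was not tested, since genes are not replicates of a day.

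Both members that were higher at their ends had more than 1 region at the start. Mrps25, a small subunit protein specific to mitochondria, had 14.8, 14.7, 18.2 and 15.9 CPM at day 21, against 12.9, 11.05, 12.3 and 10.3 CPM at day 7. All day 21 libraries were above day 7 (0.46 ± 0.11, edgeR adjusted p = 0.00137), and it kept its call under every alternative that gave a value. The gain was shared by the region centred 132 bp after the start, at 14.2 ± 1.95 CPM at day 21 and 10.8 ± 1.21 CPM at day 7 (0.40 ± 0.13), and by a weak region centred at −426 bp, at 1.69 ± 0.45 CPM at day 21 and 0.844 ± 0.25 CPM at day 7 (1.00 ± 0.37, edgeR adjusted p = 0.0499). Mrpl42, a large subunit protein specific to mitochondria, had 42.2, 37.9, 43.0 and 45.0 CPM at day 21, against 35.8, 39.1, 34.3 and 36.4 CPM at day 7. The days overlapped by 1 library (0.21 ± 0.07, edgeR adjusted p = 0.0202), and the call was lost without day 7 replicate 3 or day 21 replicate 4 (adjusted p = 0.0778 and 0.110).

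The rise at Mrpl42 was not at the start site itself. Its region 100 bp after the start had 15.4 ± 2.04 CPM at day 21 and 14.8 ± 2.37 CPM at day 7 (0.06 ± 0.12, not called), and windows of 500 bp gave 0.06 as well. The neighbouring region, centred 1118 bp after the start, had 29.4, 22.8, 25.2 and 29.2 CPM at day 21, against 24.0, 21.7, 19.9 and 20.8 CPM at day 7. The second day 21 library lay within the day 7 range (0.31 ± 0.09, edgeR adjusted p = 0.0128). Farther into the gene, regions about 1.95 kb and 7.49 kb after the start were also higher, by 0.91 ± 0.23 and 0.54 ± 0.15. All 3 called gains thus lay inside the gene, while the region over the start was not called.

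The promoters of the 2 higher genes are shown for comparison with those of the lower genes above, from the same RefSeq table and with the same marking. Mrps25 is at chr6:92183974-92184273, minus strand, and Mrpl42 at chr10:95501900-95502199, minus strand; neither lies whole within a deposited region.
Mrps25: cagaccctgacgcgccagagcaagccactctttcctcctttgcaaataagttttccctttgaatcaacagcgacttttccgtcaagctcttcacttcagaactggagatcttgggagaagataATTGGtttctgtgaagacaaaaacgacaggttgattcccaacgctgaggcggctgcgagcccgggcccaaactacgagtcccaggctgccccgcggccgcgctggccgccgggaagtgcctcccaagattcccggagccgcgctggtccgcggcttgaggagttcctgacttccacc
Mrpl42: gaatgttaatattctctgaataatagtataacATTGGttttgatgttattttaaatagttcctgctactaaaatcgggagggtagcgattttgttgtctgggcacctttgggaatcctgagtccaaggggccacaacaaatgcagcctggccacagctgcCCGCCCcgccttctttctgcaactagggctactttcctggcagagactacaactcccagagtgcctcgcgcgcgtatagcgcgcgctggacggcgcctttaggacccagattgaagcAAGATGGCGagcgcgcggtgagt
Of the 6 motifs, the Mrps25 window held 1 NFY match. The Mrpl42 window held an NFY, an SP1 and a YY1 match, the last 27 bases after the start.

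The most open ends per length, averaged over the libraries, were those of Mrpl34 (101 CPM per kb of region), Mrps16 (100.1), Mrps14 (87.8) and Mrpl41 (83.2), all not called. The next, Mrpl17 (80.2), was called lower, as described above, and Mrpl34 had −0.14 ± 0.06. Mrpl41, a protein specific to mitochondria, had 109, 115, 122 and 109 CPM at day 21, against 102, 112, 120 and 114 CPM at day 7. The libraries of the days were interleaved (0.02 ± 0.06). Mrps14, a core head protein, was as close at 92.7 ± 4.93 CPM at day 21 and 93.8 ± 0.46 CPM at day 7 (−0.02 ± 0.06). Mrps26 was the only further member higher with trended offsets (0.27, edgeR adjusted p = 0.0244); in the unadjusted scaling it had 0.17 ± 0.09 and was not called. The median over members, 25.8 CPM per kb, was near that of all genes tested, 24.4 CPM per kb.

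3 members had no region at an end. Mrpl43 (chr19:45005014-45006442), specific to mitochondria, had no distal region either, so nothing was measured for it. Mrpl24 (chr3:87918131-87923450), a tunnel protein, had 1 region inside the gene, about 1.52 kb after its start, with 23.4 ± 0.92 CPM at day 21 and 20.6 ± 2.30 CPM at day 7 (not called). Mrpl4 (chr9:21001252-21008839), the counterpart of bacterial L4, had its strongest region inside the gene, at chr9:21002557-21003652, outside the window. That region had 28.3, 28.8, 29.7 and 30.5 CPM at day 21, against 33.9, 39.5, 32.5 and 32.3 CPM at day 7, without overlap (−0.23 ± 0.08, edgeR adjusted p = 0.0366). The distal sum of Mrpl4, over 3 regions, was 52.7 ± 1.73 CPM at day 21 and 58.2 ± 1.42 CPM at day 7 and was not called (edgeR adjusted p = 0.0871); with trended offsets it was lower (0.0192).

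Genes of the mitochondrial ribosome often share an end region with a neighbour. In all, 39 of the 75 (52.0%) did so, against 28.2% of all genes with a region. Among the sharing members 18 of 39 were lower and none higher, with a median of −0.19; over all sharing genes 29.1% were lower and 5.06% higher, with a median of −0.10. Among those not sharing 13 of 36 were lower and 2 higher, with a median of −0.17, against 22.8% and 7.37% and a median of −0.08 over all genes not sharing. Trended offsets gave 8 lower and 0 higher among the sharing members, and 7 lower and 3 higher among the rest. On that scale 470 of all 3857 sharing genes tested were lower and 420 higher. Of all 9712 genes not sharing, 1202 were lower and 1197 higher. By subunit and sharing together, the counts of lower genes were 13 of 27 large and 5 of 12 small sharing genes, and 7 of 19 large and 6 of 17 small genes that do not share. When only regions in no other gene's window were summed, 14 of the 41 members left were lower and 2 higher, against 21.5% and 7.42% of all genes tested in that way.

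**Figure D3:**
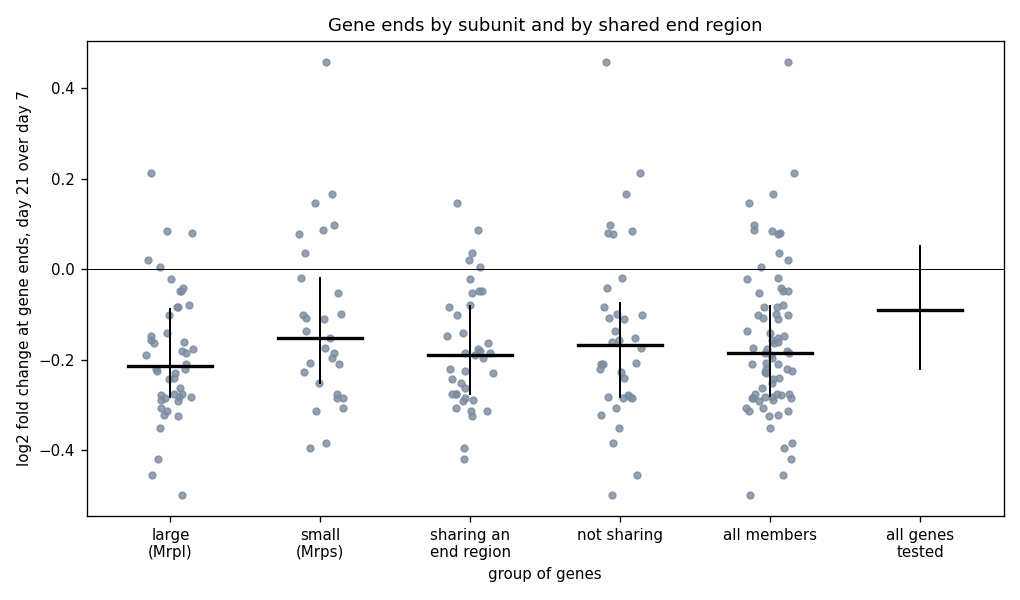
Log2 fold change at gene ends, day 21 over day 7, one point per gene, for large and small subunit genes, members that share an end region and those that do not, all 75 members, and (no points) all 13569 genes tested. Thick lines are medians, from −0.21 in the large subunit to −0.09 over all genes, and thin lines run from the lower to the upper quartile.

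A shared region cannot be assigned to either gene, and in some members it carried the whole change. At Mrps18b the region at the start, shared with Ppp1r10, which encodes a nuclear phosphatase 1 regulator, had 65.9, 68.1, 71.0 and 62.3 CPM at day 21, against 87.0, 97.9, 85.1 and 84.6 CPM at day 7 (−0.41 ± 0.06, edgeR adjusted p = 7.29e-07). The region at its other end, shared with Atat1, a tubulin acetyltransferase gene, had 34.5 ± 3.27 CPM at day 21 and 37.5 ± 2.92 CPM at day 7 and was not called. So the fall of the sum lay at the start. Mrpl2 was alike: the start region, shared with the kinesin light chain gene Klc4, had 25.9, 24.8, 25.5 and 24.3 CPM at day 21, against 34.8, 44.7, 34.1 and 36.3 CPM at day 7 (−0.57 ± 0.08, edgeR adjusted p = 2.68e-07). Its other end, shared with Cul7, had 17.3 ± 1.40 CPM at day 21 and 17.7 ± 0.95 CPM at day 7 (−0.03 ± 0.10).

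At Mrpl12 the region shared with Hgs, an endosomal sorting gene, fell to 13.8 ± 1.48 CPM at day 21, against 18.2 ± 0.52 CPM at day 7 (−0.41 ± 0.11, edgeR adjusted p = 0.00407). The unshared region at its other end had 4.68 ± 0.68 CPM at day 21 and 4.70 ± 0.75 CPM at day 7, so without the shared region the fold change was 0.01. Mrpl37 gave −0.71 with an adjusted p of 0.0943 when only its weak unshared region was counted. Mrpl58 differed from these: its start region had −0.10 ± 0.11 and was not called, while the region over its other end had 30.5, 25.3, 29.1 and 26.6 CPM at day 21, against 33.4, 37.6, 33.6 and 38.3 CPM at day 7 (−0.36 ± 0.08, edgeR adjusted p = 0.000655).

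In a pair of shared ends both genes serve mitochondrial translation. Mrps12 shares its start region with Sars2, the mitochondrial seryl-tRNA synthetase gene, and both therefore have the values given for Mrps12 above. Mrps11 and Mrpl46, a small and a large subunit gene, share 1 region, with 18.3, 22.6, 19.3 and 20.3 CPM at day 21, against 25.2, 22.1, 24.7 and 20.01 CPM at day 7. The libraries overlapped and neither gene was called (−0.19 ± 0.09, edgeR adjusted p = 0.126); the entries are a single measurement. The promoters are shown because a single accessible region overlaps the end windows of both genes of each pair: Mrps12 at chr7:28741772-28742071, minus strand, and Mrps11 at chr7:78782881-78783180, plus strand.
Mrps12: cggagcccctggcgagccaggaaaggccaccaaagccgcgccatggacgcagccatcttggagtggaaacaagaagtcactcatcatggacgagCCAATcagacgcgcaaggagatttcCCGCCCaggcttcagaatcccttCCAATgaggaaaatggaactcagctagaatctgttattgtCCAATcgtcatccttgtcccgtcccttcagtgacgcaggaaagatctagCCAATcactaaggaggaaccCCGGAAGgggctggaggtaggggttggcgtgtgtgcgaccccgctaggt
Mrps11: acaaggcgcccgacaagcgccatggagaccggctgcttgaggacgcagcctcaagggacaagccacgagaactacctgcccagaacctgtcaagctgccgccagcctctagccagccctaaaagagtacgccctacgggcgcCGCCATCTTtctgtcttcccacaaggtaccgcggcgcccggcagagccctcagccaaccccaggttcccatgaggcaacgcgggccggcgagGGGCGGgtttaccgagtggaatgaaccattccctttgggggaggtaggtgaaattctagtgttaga
The Mrps12 window held 4 NFY matches, 1 SP1 and 1 ETS match, and the Mrps11 window 1 YY1 and 1 SP1 match.

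Most called falls lay at start sites. Taken singly, 27 of the 101 end regions were lower and 3 higher, against 16.6% and 6.64% of all regions at gene ends. The strand was known for 69 members, of which 67 had a region at the start end, with 28 lower and 2 higher, and 13 at the other end, where Mrpl58 alone was lower and none higher. Over all genes 27.2% were lower and 6.18% higher at the start end, and 9.13% and 9.79% at the other end. Region by region, 59 regions covered a member's annotated start: 21 were lower and 1 higher (background 24.5% and 3.97%), with a median of −0.20, against −0.12 for such regions of all genes. Of 18 regions whose centres lay within 2 kb after the start without covering it, 3 were lower and 2 higher (7.93% and 9.09%), with a median of 0.06. Another 11 lay within 2 kb before the start, where 0 were lower and 2 higher (6.59% and 11.5%). Farther away, 7 of 95 downstream regions were lower and 8 higher (8.43% and 10.3%), and 6 of 47 upstream regions were lower and 1 higher (9.0% and 8.93%). These classes were chosen after the values had been seen, and the classes within 2 kb hold under 20 regions each. They also differ in signal: the median at day 21 was 24.4 CPM over the start, 3.37 CPM farther downstream and 3.21 CPM farther upstream. Weak regions are harder to call, and counts with trended offsets are not given for these classes.

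**Figure D4:**
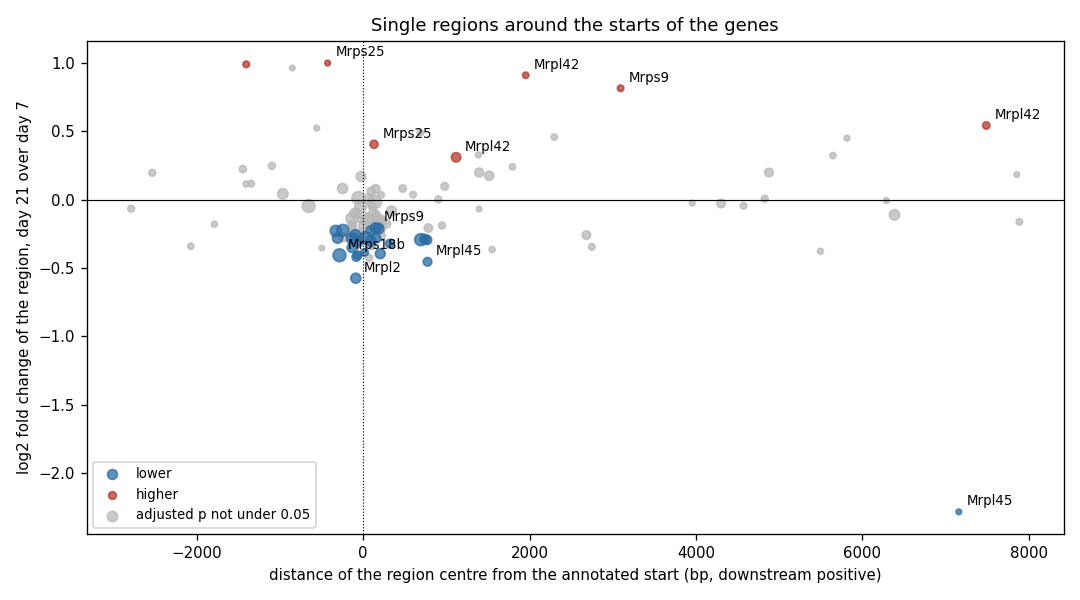
Log2 fold change of single regions, day 21 over day 7, against the distance of the region centre from the annotated start of its gene (bp, downstream positive), for members with a known strand; point area grows with mean CPM. Only regions around the start are drawn. Of the 7 downstream and 6 upstream lower regions centred more than 2 kb away, most lie outside the plot. Among those drawn, most lower regions (blue) lie within 1 kb of the start, among them Mrpl2 at −0.57. Of the named higher regions (red) 1 of Mrps25 covers the start, while the others of Mrpl42, Mrps9 and Mrps25 lie beside or beyond it.

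Mrpl3 showed opposite values side by side. Its region 72 bp after the start had 4.60 ± 0.26 CPM at day 21 and 6.24 ± 0.69 CPM at day 7 (−0.43 ± 0.18), and the region 688 bp after it had 4.58 ± 1.01 CPM at day 21 and 3.24 ± 0.39 CPM at day 7 (0.49 ± 0.21). Neither passed (edgeR adjusted p = 0.0824 and 0.0976), and their sum was level. With windows of 2 kb the sum was higher (0.21, edgeR adjusted p = 0.0239).

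Distal regions, outside all gene-end windows and nearest to a member within 50 kb, did not follow the ends. Of 49 members with a distal sum tested, 9 were higher and 3 lower, and 37 were not called; over all genes tested 18.3% were higher and 11.4% lower, so the members' share of higher genes was at the background. The median was 0.03, against 0.04 for all genes, and it was −0.03 with trended offsets. In 8 members all day 21 libraries lay above all of day 7 and in 3 below, against 16.5% and 10.4% of all genes. Large subunit genes counted 6 higher and 2 lower of 29, small subunit genes 3 higher and 1 lower of 20. Trended offsets left 7 higher and 4 lower, with backgrounds of 14.8% and 15.0%. As single regions, 15 of 164 tested were higher and 13 lower, with 9.98% and 8.72% in all regions away from gene ends.

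Mrpl13, whose bacterial counterpart is an early assembly protein, had the distal gain with the smallest p. Its 6 distal regions summed to 52.1, 49.5, 47.7 and 52.1 CPM at day 21, against 40.5, 40.0, 40.1 and 40.3 CPM at day 7. The day 7 libraries were nearly equal and all lay below day 21 (0.32 ± 0.07, edgeR adjusted p = 0.000160). The gain sat in a region inside the gene, at chr15:55543415-55544104, with 28.8 ± 1.86 CPM at day 21 and 22.9 ± 1.46 CPM at day 7, and in one outside it, at chr15:55531374-55531879, with 8.92 ± 0.96 CPM at day 21 and 4.57 ± 0.57 CPM at day 7 (0.96 ± 0.16). The ends of Mrpl13 were not called (−0.08 ± 0.09).

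Mrpl36, the counterpart of bacterial L36, had distal sums of 9.49, 8.72, 8.31 and 10.3 CPM at day 21, against 6.40, 5.74, 5.40 and 7.33 CPM at day 7. No libraries overlapped (0.56 ± 0.15, edgeR adjusted p = 0.00264). Mrps31, specific to mitochondria, had distal sums of 30.0, 29.4, 27.2 and 34.9 CPM at day 21, against 25.3, 22.1, 23.8 and 26.1 CPM at day 7, also apart (0.32 ± 0.09, edgeR adjusted p = 0.00355), and lost its call without day 21 replicate 4 (adjusted p = 0.0613). Its clearest region lay about 1.40 kb before the start, just outside the window, with 5.76 ± 0.79 CPM at day 21 and 2.92 ± 0.70 CPM at day 7 (0.99 ± 0.21). The distal regions of Mrpl42 summed to 18.1 ± 1.35 CPM at day 21 and 14.1 ± 1.03 CPM at day 7 (0.37 ± 0.11, edgeR adjusted p = 0.00589).

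Mrpl3 and Mrps5 had distal gains whose calls were lost without single libraries. The distal sum of Mrpl3 was 33.3 ± 0.95 CPM at day 21 and 28.1 ± 2.00 CPM at day 7 (0.24 ± 0.08, edgeR adjusted p = 0.0193). It lost the call without day 7 replicate 2 (adjusted p = 0.0756), without day 21 replicate 2 (0.0596) and with trended offsets (0.0531). Mrps5 had 4.52 ± 0.50 CPM at day 21 and 2.95 ± 1.14 CPM at day 7 (0.60 ± 0.22, edgeR adjusted p = 0.0332), and lost the call without day 7 replicate 2 or 3 (0.0837 and 0.182) or day 21 replicate 2, 3 or 4 (0.0614, 0.0679 and 0.0841). The DESeq2 Wald test gave Mrps5 an adjusted p of 0.0514. Distal sums of Mrpl44 (0.12 ± 0.05), Mrpl23 (0.24 ± 0.12) and Mrps22 (0.41 ± 0.21) were not called; without 1 library Mrpl44 was (day 7 replicate 3 or day 21 replicate 2, adjusted p = 0.0489 and 0.0443), and so was Mrps22 (day 21 replicate 3, 0.0255).

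The 3 distal falls were at Mrpl45, Mrpl39 and Mrps30. Mrpl45 had distal sums of 11.9, 10.4, 13.1 and 10.4 CPM at day 21, against 15.5, 16.9, 14.8 and 19.2 CPM at day 7. The days were separate (−0.54 ± 0.12, edgeR adjusted p = 0.000190). A region 4.97 kb before its start had 7.08 ± 0.59 CPM at day 21 and 9.90 ± 1.38 CPM at day 7, and a weak one inside the gene fell to 0.337 ± 0.20 CPM at day 21, against 1.74 ± 0.37 CPM at day 7 (−2.28 ± 0.46, edgeR adjusted p = 0.000140). Mrpl39, specific to mitochondria, had a distal sum of 62.1 ± 5.42 CPM at day 21 and 70.2 ± 7.33 CPM at day 7 (−0.18 ± 0.07, edgeR adjusted p = 0.0326). Its call was lost without day 7 replicate 1 or 3 (adjusted p = 0.288 and 0.0511) and without day 21 replicate 2 or 4 (0.199 and 0.0647). So it was with TMM scaling on the sums (edgeR adjusted p = 0.0598), within 25 kb (edgeR, 0.0577) and in the DESeq2 Wald test (0.0666). Mrps30 had 24.4 ± 2.77 CPM at day 21 and 28.8 ± 3.28 CPM at day 7 (−0.24 ± 0.09, edgeR adjusted p = 0.0411). It lost the call without day 7 replicate 2 or 3 (0.172 and 0.129) and without day 21 replicate 3 or 4 (0.178 and 0.0846), and within 25 kb its value was −0.01, the called regions being about 30.5 and 46.5 kb before the start. TMM scaling on the sums (edgeR adjusted p = 0.0564), regions within 100 kb (edgeR, 0.0920) and the DESeq2 Wald test (0.0626) also lost it.

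**Figure D5:**
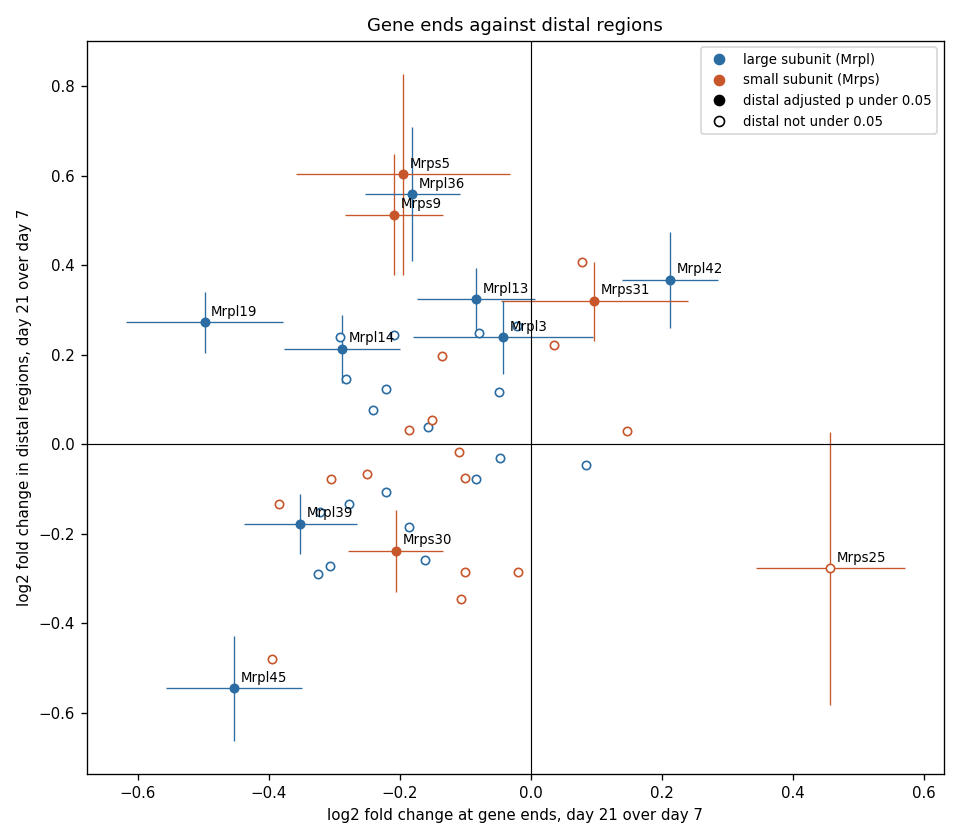
Log2 fold change at gene ends (horizontal) against that in distal regions (vertical), day 21 over day 7, for the 47 members tested in both; filled points are called in distal regions, and bars of 1 SE are drawn for the named genes. Mrpl19, Mrpl14 and Mrps9 lie to the left of 0 and above it, Mrpl45 lowest at −0.45 and −0.54, and Mrpl42 is called higher on both axes.

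Ends and distal regions went in opposite called directions at 3 of the 47 members tested in both. Such pairs were not counted over all genes. Whether 3 is more than unrelated calls at ends and distal regions would give was not tested. Mrpl19, with the deepest fall at its end, had distal sums of 52.8, 57.2, 63.7 and 60.4 CPM at day 21, against 48.9, 51.2, 49.3 and 45.4 CPM at day 7. The distal libraries were apart in the direction opposite to the end (0.27 ± 0.07, edgeR adjusted p = 0.00112), mostly through 1 broad region of 1469 bp at chr6:81986435-81987904 with 52.0 ± 4.16 CPM at day 21 and 43.8 ± 2.44 CPM at day 7. Mrps9, the counterpart of bacterial S9, had 37.8, 32.6, 36.1 and 33.9 CPM at its end at day 21, against 36.3, 45.5, 41.1 and 39.6 CPM at day 7. The day 21 range reached into that of day 7 (−0.21 ± 0.07, edgeR adjusted p = 0.0269). Its distal sums were 12.4, 12.5, 12.5 and 11.1 CPM at day 21, against 6.73, 9.56, 10.3 and 7.58 CPM at day 7, without overlap (0.51 ± 0.13, edgeR adjusted p = 0.00222). The end call of Mrps9 was lost without day 7 replicate 2 or 3 (adjusted p = 0.129 and 0.0641), without day 21 replicate 2 or 4 (0.0977 and 0.0851) and with trended offsets (0.320). Counts thinned to the shallowest library lost that end call as well (edgeR adjusted p = 0.144).

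Mrpl14, at the interface of the subunits, had 24.1 ± 2.88 CPM at its ends at day 21 and 29.5 ± 3.16 CPM at day 7 (−0.29 ± 0.09, edgeR adjusted p = 0.00914), in a region shared with Tmem63b, an ion channel gene. In its distal regions it had 43.8 ± 4.43 CPM at day 21 and 37.9 ± 2.83 CPM at day 7 (0.21 ± 0.08, edgeR adjusted p = 0.0251). The end call was lost without day 7 replicate 4 or day 21 replicate 2 (adjusted p = 0.105 and 0.0547), the distal call without day 7 replicate 1 or 3 (0.112 and 0.0667) or day 21 replicate 3 or 4 (0.141 and 0.0614), and both with trended offsets (0.107 and 0.0686). With counts thinned to the shallowest library the distal call was lost too (edgeR adjusted p = 0.0529). The other called pairs went the same way at both places, lower at Mrpl39, Mrpl45 and Mrps30 and higher at Mrpl42. In 10 members the ends were lower and the distal sum not called, in 5 the distal sum was higher and the ends not called, Mrps25 was higher at its ends alone, and 24 were called at neither.

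Other genes of mitochondrial translation were also counted at their ends, against the 24.6% of all genes called lower and 6.71% called higher. Of 5 subunit genes with other names (Dap3, Ptcd3, Chchd1, Aurkaip1 and Gadd45gip1) none passed, with a median of −0.09. At unadjusted p under 0.05 there were 3 of 5, beside 5609 of all 13569 genes tested, and with trended offsets 1 was higher (background 11.9%). Among 23 tested assembly factors 4 were lower and 0 higher, a share (17.4%) below that of all genes: Rbfa, a ribosome-binding factor, at −0.32 ± 0.10, Mpv17l2 at −0.26 ± 0.06, and the RNA-modifying enzymes Mrm3 at −0.37 ± 0.14 and Rpusd4 at −0.31 ± 0.10. Among 15 translation factors and insertion proteins 3 were lower and 0 higher, also a share below that of all genes. They were the initiation factor gene Mtif3 (−0.41 ± 0.15), Mtfmt (−0.38 ± 0.11), whose product formylates the initiator methionine, and Lrpprc (−0.32 ± 0.07), whose product stabilises mitochondrial messengers.

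Of 18 tested aminoacyl-tRNA synthetase genes 7 were lower (38.9%) and 0 higher. Whether the lists differ was not tested. Sars2, in this list, has the end values of Mrps12, so that measurement is counted in both. Aars2, for alanine, fell to 5.12 CPM at day 21, against 8.64 CPM at day 7 (−0.77 ± 0.17, edgeR adjusted p = 0.000334), the deepest called fall of that list; Gars, for glycine, fell by 0.36 and Wars2, for tryptophan, fell by 0.17 on the log2 scale. The medians were −0.08 for assembly factors, −0.15 for translation factors and −0.08 for synthetases, beside −0.09 for all genes. With trended offsets the counts lower and higher were 1 and 1, 2 and 2, and 4 and 0, and the medians of assembly factors and synthetases changed sign to 0.02 each. The cytosolic ribosome, set beside these, had 26 lower and 2 higher of 79 tested genes, with a median of −0.13 and, with trended offsets, 12 lower and 6 higher. The trended background at gene ends was 12.3% lower and 11.9% higher. In distal regions the lists counted 1 lower and 1 higher of 17 assembly factors, 0 and 2 of 12 translation factors, and 2 and 2 of 11 synthetases. Over all genes tested in distal regions 11.4% were lower and 18.3% higher.

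Promoter letters of the members differed from those of other open promoters in some motifs. The table held 75 promoters of 69 members, compared here with 12862 promoters of protein-coding genes that had a region at the start end. ETS was in 34.7% of member promoters and 16.4% of open promoters, YY1 in 10.7% and 2.71%, and NRF1 in 8.0% and 2.78%. NFY (40.0% and 37.4%) and CRE (2.67% and 2.98%) were near the share of open promoters, and SP1 was less frequent, at 52.0% and 60.8%. In all 32851 promoters of the table the shares were 8.86% for ETS, 1.40% for YY1, 1.52% for NRF1, 37.4% for NFY, 35.7% for SP1 and 1.79% for CRE. The median GC content was 58.7% in member promoters and 60.7% in open ones.

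NRF1, a factor named for its role at nuclear genes of respiration, had matches at Mrps18b, Mrpl17, Mrpl32, Mrpl9, Mrpl10 and Mrpl22, and the first 5 of these were lower at their ends. Counted by promoter, 5 of 34 in lower members and 1 of 37 in members not called held it. ETS went the other way, in 9 of the 34 and 16 of the 37, and SP1 in 21 and 16. These are counts of letters in few promoters, with no test of the difference.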

How the data were processed

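ATAC-seq counts of 8 libraries were analysed. The authors deposited raw counts per region, 1 column per library over 128057 shared regions, not normalized. The tools named are MACS2 2.1.0.20150603, bedtools, SAMtools, Picard 1.65 and cutadapt 1.9, and the builds GRCm38 and mm10, per the submitters' processing notes. The aligner, filters, merging of peaks, counting unit, any shift for the transposase and the counting base of coordinates are not given in the sources used here. A shift moves a count by a few bases; its effect was not tested.

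Gene ends came from RefSeq (GRCm38.p6). Regions overlapping 1000 bp on either side of an end were summed, and a region in several windows counted for each gene. Distal sums took regions outside all windows, nearest to a gene end within 50 kb. Sums were filtered with filterByExpr, scaled with TMM factors of all regions and tested with edgeR 4.0.16 (glmQLFit, glmQLFTest, R 4.3.3), day as the only term, Benjamini-Hochberg adjusted. All 75 members with end regions and 49 with distal regions passed the filter. The SE is the fold change over the root of F. On simulated counts for the gene-end sums, with 200 genes changed, 95% of 2-fold and 89% of 1.41-fold changes were recovered with 4 unchanged genes called; for distal sums these were 96%, 71% and 15. Every simulated gene had the same scatter beyond counting noise, and no shift with signal strength was put in. These rates therefore need not hold for the data. Recovery below 1.41-fold was not tested, and the members called lower at gene ends had log2 fold changes of −0.21 to −0.50. Alternatives used DESeq2 1.42.0, limma 3.58.1, other scalings, windows, thinning and leaving out libraries.

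Members and lists were chosen with earlier results of these data known. Named genes were the 10 lower and up to 10 higher members with the smallest p at ends, up to 6 of each in distal regions, those called in opposite directions, 15 fixed for their roles and those without a region; Mrpl41, Mrps14, Mrps16, Mrpl34, Mrps26 and the genes named from other lists were picked after seeing their values.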

Additional observations from a re-analysis of the deposited data

Results flagged for a closer look

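In 4 of 94 groups of 4 libraries tested, 1 library stood apart from the other 3 by Dixon's criterion, which chance meets in about 1 of 20 groups. At the ends of Mrps34 day 21 replicate 3 had 24.5 CPM, against 20.8 to 21.1 CPM in the other day 21 libraries. At the ends of Mrps12 the same library had 50.5 CPM, against 41.5 to 42.9 CPM in the others of its day. At the ends of Mrps18b day 7 replicate 2 had 139 CPM, against 121 to 123 CPM in the other day 7 libraries, and the fall of Mrps18b held without it. In the distal regions of Mrps9 day 21 replicate 4 had 11.1 CPM, against 12.4 to 12.5 CPM. The calls at Mrps12, Mrps18b and distal Mrps9 were kept without each library in turn, and the cause of the deviations was not tested.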

How the results depend on the processing

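Of 31 called results for named genes 16 kept direction and call under every alternative, 8 lost the call with trended offsets and 12 without 1 library, and 7 uncalled ones gained a call. The count of 31 members lower at gene ends became 15 with trended offsets and 14 with only unshared regions (41 members tested); leaving out each library in turn gave 22 to 30, and the other alternatives 24 (thinned to the shallowest library) to 34. The 2 higher at gene ends became 1 with windows of 500 bp and 4 with windows of 2000 bp, and 1 to 2 without a library. The 9 higher in distal regions ranged from 6 to 10. The 3 lower in distal regions became 1 with TMM on the sums and 1 with the DESeq2 Wald test, and 1 to 3 without a library. With only unshared regions Mrpl12 at gene ends was level and not called (0.0056, edgeR adjusted p = 0.987), from the weak region at its other end. Mrpl3 at gene ends went from not called to higher with windows of 2000 bp (0.21, edgeR adjusted p = 0.0239). The cause of either change was not tested beyond the regions counted. Same-numbered libraries of the days did not deviate together over gene ends (correlations 0.01, 0.01, 0.05 and −0.01). The main fit used no pairing, and these correlations cannot show whether same-numbered libraries were handled together. With the replicate block 32 members were lower and 2 higher at gene ends, and 3 lower and 10 higher in distal regions. Weak ends limit precision: the standard error was 0.23 at Mrps2 and 0.06 at Mrps18b.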
